A study of Mus musculus with 16 samples.

Results

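The genes described here are 10 hormone and granule genes of enteroendocrine cells, the hormone-secreting cells of the gut epithelium: Chga, Chgb, Gcg, Pyy, Insl5, Nts, Tac1, Tph1, Sst and Cck. They were given as a list of names and are 10 of the 54123 genes to which reads were summed. RNA was measured in 16 libraries of mouse colon organoids, cultures of epithelium grown from colon crypts. The organoids came from the first 1 cm of the proximal colon or the last 1 cm of the descending (distal) colon of 8-week-old female mice, heterozygous for a Cre-inducible BrafV600E allele and for a Cre-inducible tdTomato reporter. Every group carries both alleles, and no Cre is described for these cultures. Lentiviral Cas9 with a Cdx2-sgRNA was used to mutate Cdx2, and organoids with a Scramble-sgRNA served as the control. Each Cdx2-sgRNA culture grew from a single clone with frameshift mutations, and no such cloning step is described for the Scramble-sgRNA organoids, so clonal growth and the guide cannot be told apart. Organoids in month 4 of culture were kept for 2 days in WENR-plus medium, with Wnt3a, EGF, Noggin and R-spondin 1, and then 3 days in WENR-plus or in WENR-minus, which lacks all of these factors. Region, guide and medium give 8 groups of 2 libraries, from 2 independent mice.

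Enteroendocrine cells arise from crypt progenitors that switch on Neurog3, a basic helix-loop-helix transcription factor needed for the whole lineage, and then a cascade of factors such as Neurod1 and Pax6. The mature cells store peptide hormones or serotonin in dense-core granules with chromogranins, the acidic granule proteins encoded by Chga and Chgb. Enterochromaffin cells make serotonin through Tph1, tryptophan hydroxylase, and often tachykinins from Tac1, while L cells make glucagon-like peptides from Gcg, peptide YY from Pyy and, in the colon, Insl5. Nts (neurotensin), Cck (cholecystokinin) and Sst (somatostatin, of D cells) are made mainly further up the gut. Cdx2 is a homeobox transcription factor of the intestinal epithelium.

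The bases upstream of the start sites are shown for the 6 members on which the results turn, because some moved together and others did not. These are 250 bases before the RefSeq start on GRCm38.p6, 5′ to 3′ on the strand of the gene. Capitals mark CANNTG, the E-box letters that basic helix-loop-helix factors bind, and TTTAT on either strand (read as ATAAA on the other), the core letters of Cdx sites. The windows are chr12:102554691-102554940 on the plus strand for Chga, chr2:132781392-132781641 on the plus strand for Chgb, chr7:46672538-46672787 on the minus strand for Tph1 (the more upstream of its 2 starts), chr2:62483654-62483903 on the minus strand for Gcg, chr11:102107777-102108026 on the minus strand for Pyy (the more downstream of its 2 starts) and chr10:102490419-102490668 on the minus strand for Nts.
Chga: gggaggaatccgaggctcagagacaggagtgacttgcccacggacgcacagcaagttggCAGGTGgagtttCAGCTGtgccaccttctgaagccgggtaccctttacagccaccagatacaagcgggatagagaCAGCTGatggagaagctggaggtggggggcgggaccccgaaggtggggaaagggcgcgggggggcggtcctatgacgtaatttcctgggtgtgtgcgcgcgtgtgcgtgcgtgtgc
Chgb: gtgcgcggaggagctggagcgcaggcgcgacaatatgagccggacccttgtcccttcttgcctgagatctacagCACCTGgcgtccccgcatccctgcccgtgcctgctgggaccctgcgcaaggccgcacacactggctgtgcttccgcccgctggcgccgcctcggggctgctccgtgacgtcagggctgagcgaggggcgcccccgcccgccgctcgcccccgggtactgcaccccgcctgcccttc
Tph1: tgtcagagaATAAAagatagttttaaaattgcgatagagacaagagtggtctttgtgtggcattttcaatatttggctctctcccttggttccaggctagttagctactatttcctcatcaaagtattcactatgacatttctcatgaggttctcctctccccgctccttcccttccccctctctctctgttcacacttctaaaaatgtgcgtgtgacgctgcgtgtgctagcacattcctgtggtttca
Gcg: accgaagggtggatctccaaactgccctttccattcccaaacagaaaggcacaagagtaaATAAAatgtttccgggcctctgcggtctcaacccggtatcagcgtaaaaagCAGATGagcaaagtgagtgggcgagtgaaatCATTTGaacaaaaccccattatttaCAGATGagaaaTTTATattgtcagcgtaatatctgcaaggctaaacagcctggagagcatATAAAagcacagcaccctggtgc
Pyy: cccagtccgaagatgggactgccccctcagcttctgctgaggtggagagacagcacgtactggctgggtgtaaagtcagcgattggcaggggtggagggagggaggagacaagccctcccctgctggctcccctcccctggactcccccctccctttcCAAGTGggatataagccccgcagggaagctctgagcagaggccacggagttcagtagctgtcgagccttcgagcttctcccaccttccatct
Nts: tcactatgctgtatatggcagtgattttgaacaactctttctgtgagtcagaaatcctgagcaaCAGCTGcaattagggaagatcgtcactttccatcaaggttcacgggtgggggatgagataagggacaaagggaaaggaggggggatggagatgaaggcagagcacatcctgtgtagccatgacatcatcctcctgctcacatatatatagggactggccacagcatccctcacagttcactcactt

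CANNTG stood in 3 places in the Chga window and in 1 each of the Chgb, Pyy and Nts windows, and TTTAT was in none of these 4. Gcg had 3 of each, and the Tph1 window held TTTAT once and no CANNTG. The window of the other Tph1 start, not shown, held neither. Of the 32851 RefSeq windows of this length, 66.2% held CANNTG and 37.3% held TTTAT, so that neither motif is rare. All 10 members were matched, and of their 13 windows 11 held CANNTG and 7 held TTTAT. By gene, 9 had CANNTG and 6 had TTTAT in at least 1 window. A match is a description of letters and not a bound site.

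The Cdx2 guide, printed with its PAM in capitals, lies in the coding sequence of exon 1 of 3 of Cdx2, at chr5:147306485-147306504 of GRCm38, in the sense of the transcript. It is shown because all contrasts of guide rest on it.
Cdx2-sgRNA: agcggcgaaacctgtgcgagTGG

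Cdx2 itself was read first. In proximal Scramble-sgRNA organoids it had 3269 and 2897 reads without the factors (WENR-minus) and 2964 and 2148 reads with them. Proximal Cdx2-sgRNA libraries had 995 and 1343 reads in WENR-minus, against 515 and 630 in WENR-plus, and did not overlap with the controls. In WENR-minus the log2 fold change of the guide was -1.29 ± 0.20 (SE, adjusted p = 0.000679), and it was -2.09 ± 0.21 (adjusted p = 5.48e-05) in WENR-plus. Distal WENR-minus libraries held 1461 and 1535 reads with Scramble-sgRNA against 1493 and 1029 with Cdx2-sgRNA, and distal WENR-plus libraries 1534 and 1263 against 1086 and 949. The distal log2 fold changes were -0.067 ± 0.20 (adjusted p = 0.876) and -0.36 ± 0.20 (adjusted p = 0.857). RNA with a frameshift is still counted, so that the read count of Cdx2 does not measure its protein, and in distal organoids the RNA gives no check of the label.

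Library totals were 12465194 to 18922143 counts (median 16836530), and mitochondrial ribosomal RNA took 15.4 to 28% of them. Of the 10 members, 8 passed the filter on low counts and were tested among 15289 genes. Tac1 and Sst did not pass. Defining markers of other cells that express some of these genes were near 0: Cpa3 at 0 reads and Mcpt4 at 1 at most for mast cells, and Prph at 1 at most for neurons. Kit, which other epithelial cells also express, reached 2623 reads and the neuronal Elavl4 18. A gene was called when the adjusted p of edgeR's quasi-likelihood test was under 0.05 and the absolute log2 fold change over 1. In bulk organoids, fewer enteroendocrine cells and less RNA per cell cannot be told apart.

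The summed level of the 10 members separated the proximal Cdx2-sgRNA organoids from all others. Their 4 libraries held 16 to 28 reads over all 10 genes, or 0.846 to 2.08 CPM (reads relative to the library total, scaled by TMM), whereas the other 12 libraries held 50.5 to 573 CPM. The lowest of those 12 was in proximal Scramble-sgRNA WENR-plus, with 71.5 and 50.5 CPM, and the highest in distal Scramble-sgRNA WENR-minus, with 573 and 390 CPM. Distal Cdx2-sgRNA organoids had 483 and 468 CPM in WENR-minus, and in WENR-plus 138 and 126 CPM beside 165 and 136 CPM in their controls.

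**Figure D1:**
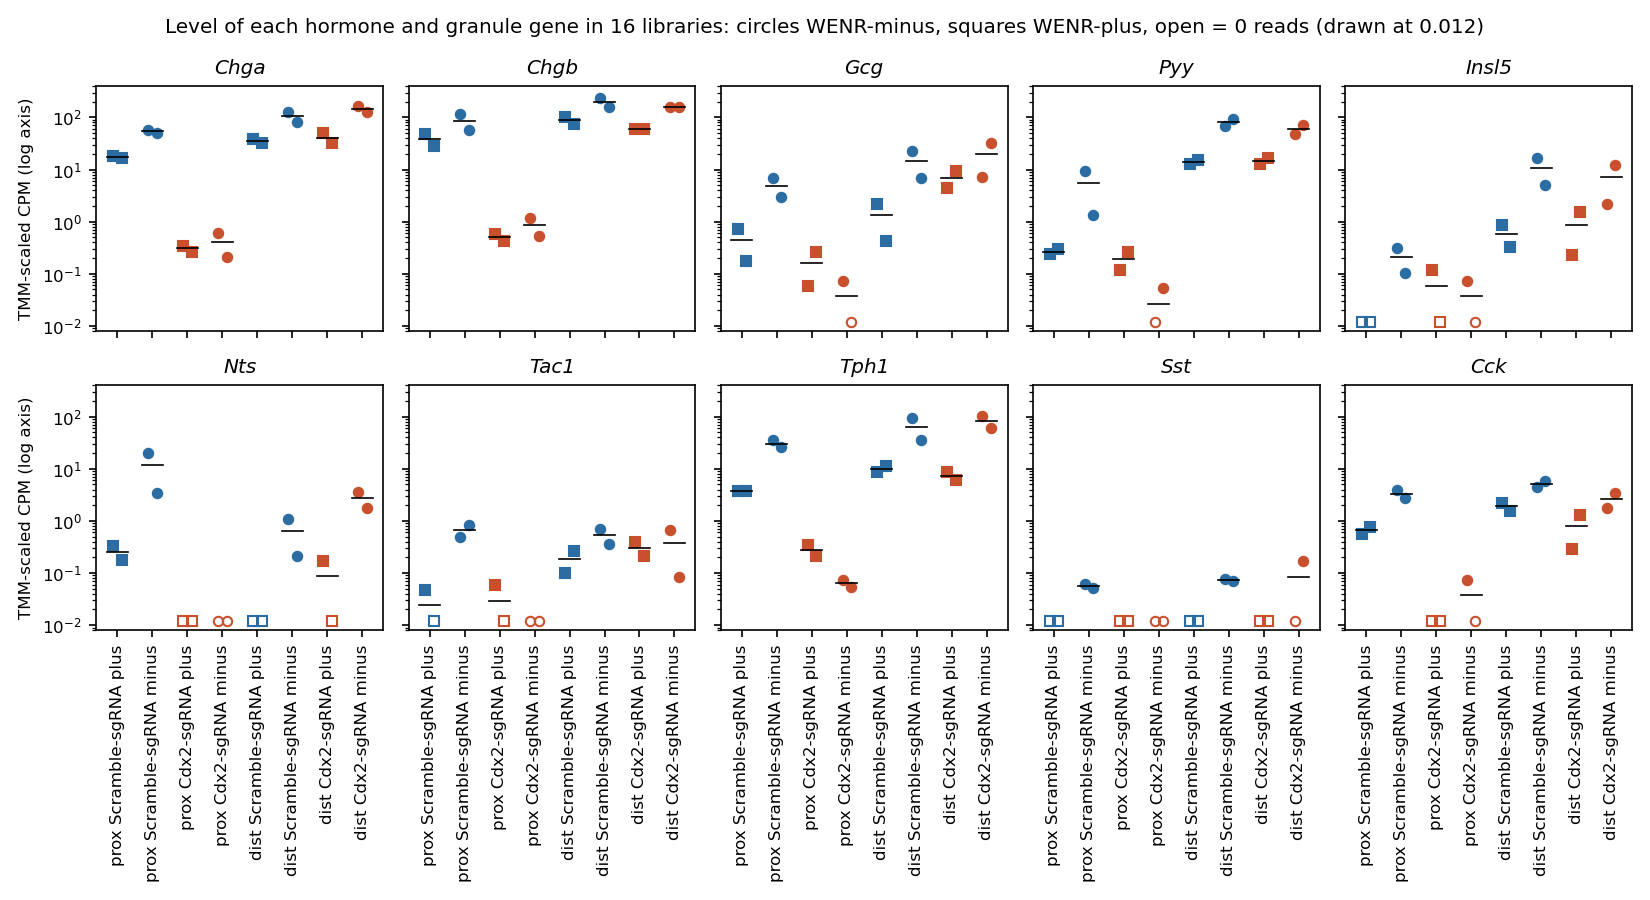
TMM-scaled CPM on a log axis for each of the 10 members in all 16 libraries (blue, Scramble-sgRNA; orange, Cdx2-sgRNA; circles, WENR-minus; squares, WENR-plus; black lines, means of 2 libraries; open symbols, 0 reads, drawn at the bottom). Chga, Chgb and Tph1 fall to at most 16 reads in each of the 4 proximal Cdx2-sgRNA libraries and stay at 63 reads or more in the other 12.

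Pyy had the highest mean level of the members in distal control organoids, and the chromogranins in proximal ones. Levels of different genes are compared here in TPM, a share of all transcripts that corrects for their length. In distal Scramble-sgRNA WENR-minus organoids Pyy led with 280 ± 57.9 TPM (SD, n = 2), above Chgb with 89.5 ± 20.2 and Chga with 72.4 ± 18.7. The Chgb and Chga libraries overlapped each other, and those of Pyy lay above both. Tph1 followed with 27 ± 14.8 TPM, then Insl5 with 24.4 ± 17.8, Gcg with 18 ± 13.4 and Cck with 12.6 ± 2.6, each overlapping its neighbour. Tac1, Nts and Sst were under 1 TPM.

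In proximal Scramble-sgRNA WENR-minus organoids the chromogranins led instead, Chgb with 45.3 ± 17.4 TPM and Chga with 45 ± 0.854. Pyy came next with 21.1 ± 21.7 TPM, a mean over libraries far apart, then Tph1 with 16 ± 2.84, Nts with 12.2 ± 11.9, Cck with 9.76 ± 1.47 and Gcg with 7.04 ± 3.47, again with overlap from Pyy to Gcg. Insl5 was at 0.55 ± 0.355 TPM. Pyy made up 44% and 63.3% of the members' summed TPM in the distal libraries of replicates 1 and 2, and 18.2% and 5% in the proximal ones. Nts was 10.3% and 3.3% of the sum in the proximal libraries and 0.161% and 0.0372% in the distal ones. These shares are descriptions, with the regions tested gene by gene further on.

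**Figure D2:**
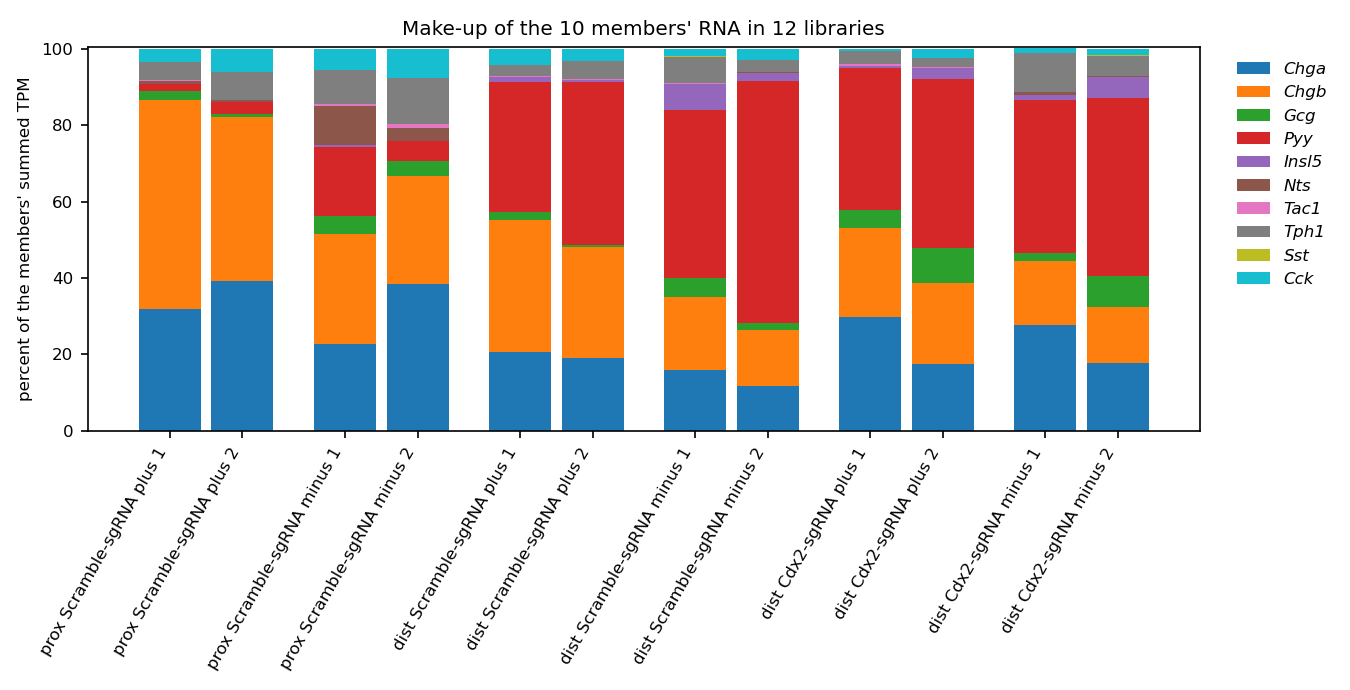
Stacked bars give the percent of the members' summed TPM taken by each of the 10 genes, in each of the 12 libraries outside the proximal Cdx2-sgRNA groups (the last number of a label is the replicate). Pyy takes 33.9 to 63.3% in the distal libraries of both guides and 1.93 to 18.2% in the proximal Scramble-sgRNA libraries. The proximal Cdx2-sgRNA libraries are left out because they held 16 to 28 reads over all members.

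The first comparison asks what withdrawal of the stem cell factors does to these genes. In proximal Scramble-sgRNA organoids 7 of the 8 tested members rose in WENR-minus, where 8.73% of all genes tested were called higher. Their median log2 fold change was 3.19, or 2.67 with Insl5, which had 0 reads in WENR-plus, at its bound, against -0.055 over all genes. In distal Scramble-sgRNA organoids 7 of 8 rose as well, beside 12.2% of all genes, with a median of 2.60, or 2.59 with Nts at its bound. With Cdx2-sgRNA in distal organoids 6 of 8 rose, beside 14.9% of all genes, with a median of 1.91.

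The chromogranins rose least among the called members. Chga had 933 and 963 reads in proximal Scramble-sgRNA WENR-minus and 377 and 286 in WENR-plus. The groups did not overlap, and the level was 3.06-fold higher in WENR-minus (log2 fold change 1.63 ± 0.29, SE, adjusted p = 0.00203). In distal Scramble-sgRNA organoids Chga had 1640 and 1147 reads in WENR-minus against 757 and 593 in WENR-plus (log2 fold change 1.58 ± 0.28, adjusted p = 0.00119), and in distal Cdx2-sgRNA organoids 1932 and 1500 against 872 and 598 (1.82 ± 0.29, adjusted p = 0.00032). Chgb rose by 1.17 ± 0.35 (adjusted p = 0.0279, or 0.0823 with only the libraries compared), 1.20 ± 0.35 (adjusted p = 0.0178) and 1.39 ± 0.35 (adjusted p = 0.00689) on the log2 scale in the same order.

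Tph1, which makes serotonin, rose more than the chromogranins in each of these 3 settings by the fitted values. It had 567 and 496 reads in proximal Scramble-sgRNA WENR-minus against 79 and 63 in WENR-plus, 1199 and 494 against 174 and 210 in distal Scramble-sgRNA, and 1206 and 729 against 149 and 115 in distal Cdx2-sgRNA. The log2 fold changes were 3.02 ± 0.43 (adjusted p = 0.000744), 2.67 ± 0.41 (adjusted p = 0.00047) and 3.48 ± 0.43 (adjusted p = 6.55e-05). In no setting did the WENR-minus libraries overlap with the WENR-plus libraries. The ratio of Tph1 to Chga in TPM was 0.279 to 0.438 in the WENR-minus libraries of these 3 settings and 0.112 to 0.235 in the WENR-plus libraries.

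Among the L cell hormones Pyy was called in all 3 settings, and Gcg and Insl5 in 2 each. Gcg had 109 and 56 reads in proximal Scramble-sgRNA WENR-minus and 15 and 3 in WENR-plus (log2 fold change 3.37 ± 1.07, adjusted p = 0.035). In distal Scramble-sgRNA it had 292 and 94 against 44 and 8 (3.45 ± 1.00, adjusted p = 0.0166). In distal Cdx2-sgRNA the read counts of the media overlapped, with 85 and 385 against 78 and 177, and the change of 1.51 ± 0.90 was not called (adjusted p = 0.194, or 0.011 with each culture as a block).

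Pyy had 903 and 1291 reads in distal Scramble-sgRNA WENR-minus and 260 and 282 in WENR-plus, a 5.79-fold difference (log2 fold change 2.52 ± 0.59, adjusted p = 0.00542). Distal Cdx2-sgRNA organoids had 561 and 838 against 220 and 319 (1.99 ± 0.58, adjusted p = 0.0148). In proximal Scramble-sgRNA it had 154 and 26 reads in WENR-minus against 5 and 5 in WENR-plus (4.31 ± 0.83, adjusted p = 0.00328). The higher of the proximal WENR-minus libraries held most of those reads.

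Insl5, an L cell peptide of the relaxin family, had 213 and 70 reads in distal Scramble-sgRNA WENR-minus and 17 and 6 in WENR-plus (log2 fold change 4.16 ± 1.16, adjusted p = 0.0153). With Cdx2-sgRNA it had 26 and 146 against 4 and 29, 7.97-fold higher (adjusted p = 0.0443), where the groups overlapped, and the call was lost with only the libraries compared (adjusted p = 0.0778) and with length-scaled counts (adjusted p = 0.0564). Proximal libraries of Scramble-sgRNA held 5 and 2 reads in WENR-minus and none in WENR-plus, and this was not called (adjusted p = 0.183).

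Nts had 331 and 67 reads in proximal Scramble-sgRNA WENR-minus against 7 and 3 in WENR-plus, a 42.6-fold difference (log2 fold change 5.49 ± 1.22, adjusted p = 0.0114). In distal Scramble-sgRNA it had 14 and 3 reads against 0 and 0, at least 8.11-fold higher with 3 reads taken as the level of the WENR-plus group (adjusted p = 0.0395). Distal Cdx2-sgRNA organoids had 43 and 21 against 3 and 0, a ratio of 32.6 with a 95% counting interval of 10.7 to 162 (adjusted p = 0.017). The media were apart in all 3 settings, and outside proximal Scramble-sgRNA and distal Cdx2-sgRNA WENR-minus no library held more than 14 reads.

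Cck had 63 and 54 reads in proximal Scramble-sgRNA WENR-minus against 12 and 13 in WENR-plus (log2 fold change 2.31 ± 0.70, adjusted p = 0.0304). In distal organoids the changes were 1.40 ± 0.65 with Scramble-sgRNA (adjusted p = 0.112, or 0.0285 with each culture as a block) and 1.68 ± 0.69 with Cdx2-sgRNA (adjusted p = 0.0689, or 0.0151 with the block). Tac1 had 8 and 16 reads in proximal Scramble-sgRNA WENR-minus against 1 and 0 in WENR-plus, a ratio of 25.7 with a counting interval of 4.19 to 1057, and at most 9 reads in any other library. Sst was at 2 reads or fewer in every library, so that cells of the D type could not be followed at this depth.

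In proximal Cdx2-sgRNA organoids 0 of the 8 tested members were called between media by edgeR, beside 6.40% of all genes called in either direction. DESeq2 called 0 members as well, and 0 passed an unadjusted p of 0.05, beside 4387 of the 15289 genes tested. The members passed the filter through the other groups and held 0 to 16 reads in each of these 4 libraries, with no fold to be given for 3 of the 8, so that the lack of calls says little about the medium. Chga had 8 and 4 reads in WENR-minus against 6 and 5 in WENR-plus, and Chgb 16 and 10 against 10 and 8. Tph1 had 1 and 1 reads against 6 and 4. The fitted changes of Chga and Chgb were 0.30 ± 0.62 (adjusted p = 0.815) and 0.71 ± 0.62 (adjusted p = 0.501). The test of the difference, the medium effect with Cdx2-sgRNA minus that with Scramble-sgRNA, called 1 of 8 members in proximal organoids, Tph1 (-5.06 ± 1.18, adjusted p = 0.0407), beside 1.93% of all genes lower. With each culture as a block it called 3. Without proximal Scramble-sgRNA WENR-minus replicate 2 it called 2, and without any 1 of the other 7 libraries 0. In distal organoids it called 0 of 8 members by edgeR and by DESeq2, and 0% of all genes by edgeR. There 0 members had an unadjusted p under 0.05, beside 1457 of the 15289 genes tested.

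**Figure D3:**
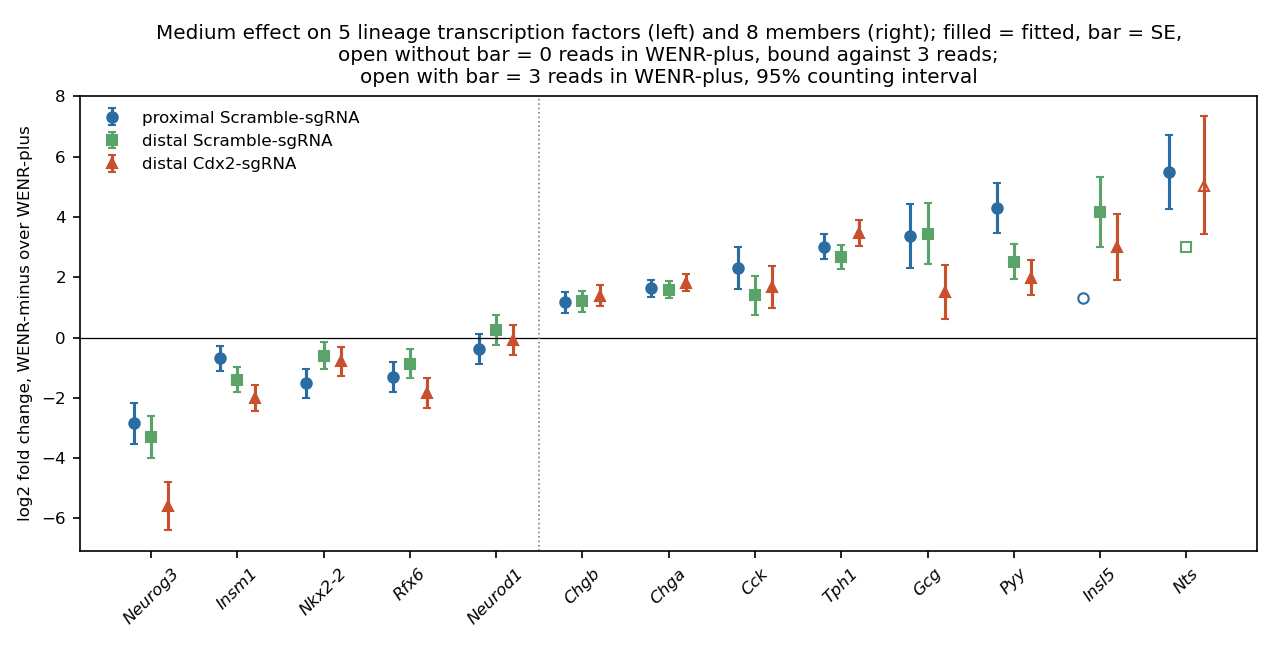
Log2 fold change of WENR-minus over WENR-plus for 5 transcription factors of the lineage and 8 tested members, in proximal Scramble-sgRNA (blue circles), distal Scramble-sgRNA (green squares) and distal Cdx2-sgRNA organoids (orange triangles). Filled symbols are fitted values with their SE, open symbols without bars are bounds where WENR-plus had 0 reads, and the open symbol with a bar is a ratio with its 95% counting interval. Neurog3 lies below 0 and Chga, Chgb, Tph1 and Pyy above 0 in all 3.

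Neurog3 moved against the hormones. In proximal Scramble-sgRNA organoids it had 18 and 52 reads in WENR-minus against 301 and 229 in WENR-plus, and fell by 2.85 ± 0.68 on the log2 scale (SE, adjusted p = 0.00936, or 0.0918 without WENR-minus replicate 1). In distal Scramble-sgRNA it had 15 and 45 against 401 and 433 and fell by 3.30 ± 0.69 (adjusted p = 0.00287), and in distal Cdx2-sgRNA 4 and 9 against 735 and 214, a fall by 5.59 ± 0.81 (adjusted p = 0.000194). The groups were apart in all 3. Fam241b lies on the opposite strand over Neurog3 with at most 133 reads, and the kit keeps strand. Of the 15 transcription factors of the lineage, Neurog3 and Nkx2-2 fell in proximal Scramble-sgRNA, Neurog3 and Insm1 in distal Scramble-sgRNA, and Neurog3, Insm1, Rfx6 and Foxa2 in distal Cdx2-sgRNA, and none rose. Of all genes, 8.24%, 14.2% and 18.1% were called lower in these settings, and 2, 2 and 4 of 15 factors are read as no more than that background. Over all 16 libraries, stem and crypt markers summed to 92.2 to 193 CPM in the WENR-minus and 324 to 546 CPM in the WENR-plus libraries, and colonocyte markers to 519 to 15993 and 136 to 654 CPM. The part of these shifts in the members' rise was not tested.

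Leaving out single libraries cut these counts. In proximal Scramble-sgRNA 4 members were called without WENR-plus replicate 1, 3 without WENR-plus replicate 2 and 3 without WENR-minus replicate 1, and in distal Scramble-sgRNA 3 without WENR-minus replicate 1 and 3 without WENR-plus replicate 2. Chga, Pyy and Tph1 were called in each of these. In proximal organoids Gcg, Nts and Cck lost their calls in each of the 3, and Chgb without WENR-minus replicate 1 or WENR-plus replicate 2. In distal Scramble-sgRNA Gcg, Nts, Chgb and Insl5 lost theirs in both, and Nts also without WENR-plus replicate 1. In distal Cdx2-sgRNA organoids Pyy lost its call without either WENR-plus library or WENR-minus replicate 2, Insl5 without WENR-plus replicate 1 or WENR-minus replicate 2, and Nts without WENR-minus replicate 1 or WENR-plus replicate 2.

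The second comparison, of Cdx2-sgRNA with Scramble-sgRNA, asks how far the members depend on Cdx2 in each region. In proximal organoids 7 of 8 tested members fell in WENR-minus, beside 12.1% of all genes called lower, and 4 of 8 fell in WENR-plus, beside 8.94%. The median log2 fold change over the 8 was -7.05 in WENR-minus, or -6.95 with Nts, at 0 reads, at its bound, against 0.00 over all genes. In WENR-plus it was -4.44, or -2.33 with genes at 0 reads at their bound, against -0.050 over all genes. In distal organoids 0 of 8 were called in either medium, beside 5.25% of all genes in WENR-minus and 0.262% in WENR-plus, in either direction. DESeq2 also called 0 there. An unadjusted p under 0.05 was reached by 0 members in WENR-minus, beside 3984 of the 15289 genes tested. In WENR-plus it was reached by 1 member, Gcg, beside 973 of the 15289 genes.

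Chga fell to 8 and 4 reads in proximal Cdx2-sgRNA WENR-minus from 933 and 963, 145-fold lower (log2 fold change -7.13 ± 0.42, SE, adjusted p = 8.22e-07). In WENR-plus it had 6 and 5 reads against 377 and 286, 57.6-fold lower (-5.81 ± 0.42, adjusted p = 5.46e-06). In distal organoids Chga had 1932 and 1500 reads with Cdx2-sgRNA and 1640 and 1147 with Scramble-sgRNA in WENR-minus, which overlapped (0.47 ± 0.28, adjusted p = 0.309), and 872 and 598 against 757 and 593 in WENR-plus (0.23 ± 0.28, adjusted p = 0.974).

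Chgb fell as far, to 16 and 10 reads from 1842 and 1111 in WENR-minus (log2 fold change -6.70 ± 0.49, adjusted p = 3.7e-06) and to 10 and 8 from 1001 and 481 in WENR-plus (-6.24 ± 0.50, adjusted p = 1.25e-05). The distal changes of Chgb were -0.35 ± 0.35 (adjusted p = 0.573) and -0.54 ± 0.35 (adjusted p = 0.923). Both chromogranins were thus still read in every proximal Cdx2-sgRNA library, at 4 reads or more.

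Tph1 had 1 and 1 reads in proximal Cdx2-sgRNA WENR-minus against 567 and 496, 487-fold lower with a 95% counting interval of 135 to 4028 (adjusted p = 7e-06). In WENR-plus it had 6 and 4 against 79 and 63, 13.6-fold lower (log2 fold change -3.72 ± 0.59, adjusted p = 0.00121). The distal libraries of both guides overlapped in WENR-minus, at 1206 and 729 against 1199 and 494 reads (0.35 ± 0.38, adjusted p = 0.605). In distal WENR-plus the change was -0.45 ± 0.40 (adjusted p = 0.968).

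Cck had 1 and 0 reads in proximal Cdx2-sgRNA WENR-minus against 63 and 54, a ratio of 107 with a counting interval of 18.9 to 4271 (adjusted p = 0.000997). In WENR-plus it had 0 reads in both libraries against 12 and 13, at least 7.97-fold lower (adjusted p = 0.00712). Its distal changes were -0.96 ± 0.65 (adjusted p = 0.388) and -1.23 ± 0.68 (adjusted p = 0.868).

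Gcg, Pyy and Nts were called lower in WENR-minus, and Insl5, with 5 and 2 reads in the controls, was not (adjusted p = 0.386). Gcg had 1 and 0 reads against 109 and 56, a ratio of 151 with an interval of 26.8 to 6009 (adjusted p = 0.00642, or 0.0649 without Cdx2-sgRNA replicate 2). Pyy had 0 and 1 against 154 and 26, a ratio of 165 with an interval of 29.2 to 6552 (adjusted p = 0.00105). Nts had 0 reads in both against 331 and 67, at least 122-fold lower (adjusted p = 0.00368).

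In WENR-plus Gcg, Pyy and Nts were low in the controls too. Gcg had 1 and 5 reads with Cdx2-sgRNA and 15 and 3 with Scramble-sgRNA (log2 fold change -1.44 ± 1.38, adjusted p = 0.482), and Pyy 2 and 5 against 5 and 5 (adjusted p = 0.83). Neither was called, and with so few reads in the controls the lack of a call says little. Nts had 0 reads against 10 in all (adjusted p = 0.144). Insl5 and Tac1 held 2 reads or fewer in each proximal Cdx2-sgRNA library.

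In distal organoids the replicates of Gcg and Insl5 went opposite ways between guides. With Scramble-sgRNA the library of replicate 1 held more Gcg than that of replicate 2 in both media, at 292 against 94 and 44 against 8 reads, and with Cdx2-sgRNA it held less, at 85 against 385 and 78 against 177. The same held for Insl5, at 213 against 70 and 17 against 6 with Scramble-sgRNA and 26 against 146 and 4 against 29 with Cdx2-sgRNA. The change of Gcg was 0.43 ± 0.88 in WENR-minus (adjusted p = 0.806) and 2.38 ± 0.97 in WENR-plus (adjusted p = 0.701), the latter from 52 to 255 reads over the group. With no filter on low counts the change in WENR-plus was called (2.38, adjusted p = 3.55e-06), at the same fold.

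**Figure D4:**
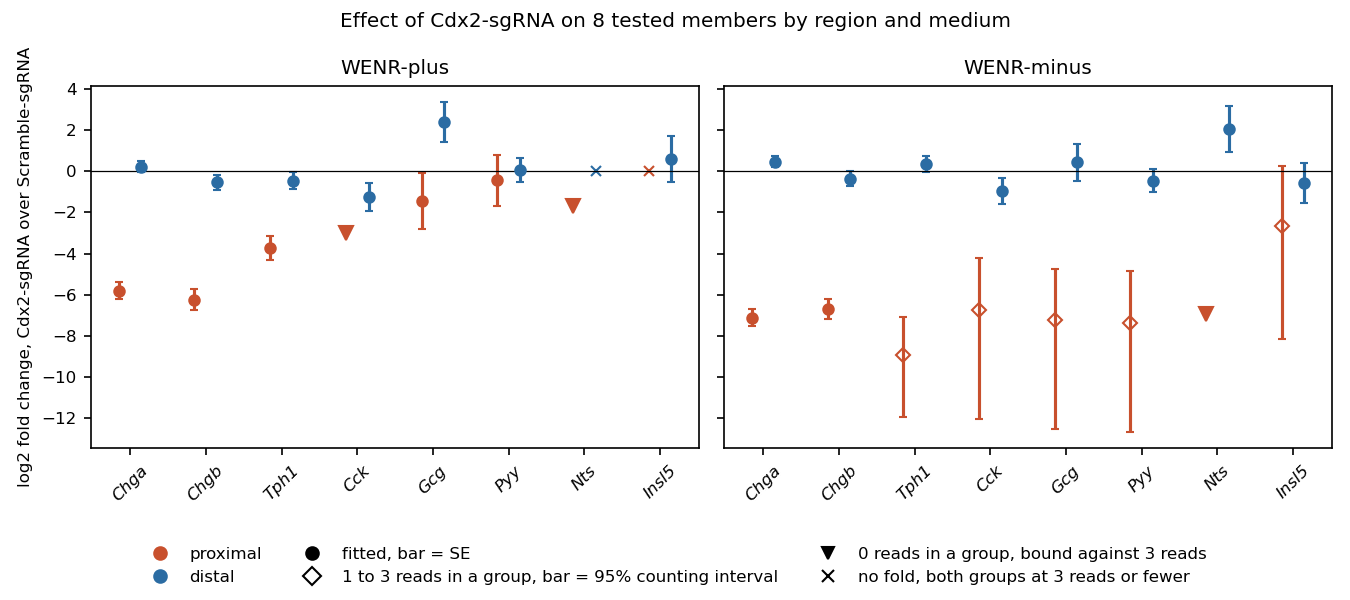
Log2 fold change of Cdx2-sgRNA over Scramble-sgRNA for the 8 tested members in WENR-plus (left) and WENR-minus (right), in proximal (orange) and distal (blue) organoids. Filled circles are fitted values with their SE, diamonds are ratios with 95% counting intervals where a group had 1 to 3 reads, triangles are bounds against 3 reads where a group had 0, and crosses have no fold. Proximal values of Chga and Chgb lie between -7.13 and -5.81, and their distal values between -0.54 and 0.47.

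The difference between the regions was tested itself. The proximal effect of Cdx2-sgRNA less the distal effect was called for 7 of 8 members in WENR-minus, beside 9.08% of all genes lower, and for 3 of 8 in WENR-plus (Chga, Chgb and Tph1), beside 3.76%. For Chga the difference was -7.61 ± 0.51 on the log2 scale in WENR-minus (adjusted p = 4.14e-06) and -6.03 ± 0.51 in WENR-plus (adjusted p = 6.36e-05). For Chgb it was -6.35 ± 0.59 (adjusted p = 5.22e-05) and -5.70 ± 0.61 (adjusted p = 0.000317). In WENR-minus the call of Gcg was lost without proximal Scramble-sgRNA replicate 1, proximal Cdx2-sgRNA replicate 2 or either distal replicate 2, and that of Cck without proximal Cdx2-sgRNA replicate 2. Tph1 in WENR-plus differed by -3.27 ± 0.73 (adjusted p = 0.0247), a call lost without any 1 of 7 of the 8 libraries (adjusted p of 0.0527 to 0.117). Cck in WENR-plus was not called (adjusted p = 0.0935).

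Within the proximal Cdx2-sgRNA organoids Pyy, Gcg and Tph1 had fewer reads in WENR-minus than in WENR-plus, at 1 against 7, 1 against 6 and 2 against 10 over the groups, whereas the same genes rose in their controls. The counting intervals of these ratios were 0.805 to 283, 0.652 to 247 and 0.954 to 42, and all 3 include 1.

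Factors of the lineage fell with the hormones in proximal organoids. Of the 15 transcription factors, all tested, 11 were called lower with Cdx2-sgRNA in WENR-minus, beside 12.1% of all genes. In WENR-plus 12 were lower, beside 8.94%, and 0 were higher. In distal organoids edgeR called 0 in either medium, beside 5.25% and 0.262% of all genes in either direction, and 0 of 15 is near these shares. An unadjusted p under 0.05 was reached there by 2 and 0 factors, beside 3984 and 973 of the 15289 genes. The median was -4.80 and -5.70 in proximal organoids, or -3.93 and -4.19 with genes at 0 reads at their bound, and -0.20 and 0.10 in distal organoids. Neurog3 had 1 and 1 reads in proximal Cdx2-sgRNA WENR-minus against 18 and 52 (adjusted p = 0.00658, or 0.0657 without Cdx2-sgRNA replicate 2), and 5 and 1 in WENR-plus against 301 and 229, 84.4-fold lower in the latter (log2 fold change -6.32 ± 0.89, adjusted p = 0.000576). Neurod1, which follows Neurog3 in the lineage, had 1 read or none in each of the 4 libraries against 50 to 90 in the controls (adjusted p = 0.000264 and 0.000242). Myt1, a zinc finger factor of endocrine progenitors, was likewise at 1 read or none against 37 to 78 (adjusted p = 0.000696 and 0.000185).

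Insm1 and Foxa2 were called in neither medium. Insm1, a zinc finger repressor of endocrine progenitors, had 107 and 94 reads in proximal Cdx2-sgRNA WENR-minus against 62 and 130, and 142 and 280 in WENR-plus against 159 and 163 (adjusted p = 0.663 and 0.497). Foxa2 had 67 and 185 reads against 61 and 41 in WENR-minus and 62 and 432 against 336 and 81 in WENR-plus, with replicates far apart (adjusted p = 0.219 and 0.772). Foxa1, which other epithelial cells use as well, was not called in WENR-minus and fell by 1.27 ± 0.16 in WENR-plus (adjusted p = 0.000337). The difference between proximal and distal organoids was called for 8 of the 15 factors in WENR-minus and 10 in WENR-plus. Of all genes, 9.08% and 3.76% were called lower in these tests.

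Of 16 further genes of granules and peptide processing, 15 were tested. In proximal organoids 6 fell with Cdx2-sgRNA in WENR-minus (Syt13, Scg3, Slc18a1, Pcsk1n, Scg2 and Ptprn2) and 5 in WENR-plus (the same without Slc18a1), and 0 rose. Of all genes, 12.1% and 8.94% were called lower in these comparisons. Ptprn2, a phosphatase-like protein of the granule membrane, had 2 and 5 reads against 416 and 282 in WENR-minus (log2 fold change -6.51 ± 0.60, adjusted p = 2.09e-05). Scg2, secretogranin II, had 2 and 1 against 62 and 51, a ratio of 34.5 (adjusted p = 0.000119). Slc18a1, the vesicular monoamine transporter, had 30 and 50 against 113 and 158 (-1.64 ± 0.53, adjusted p = 0.0359).

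The 3 genes of that list with the highest mean CPM over the 16 libraries, all enzymes, were not lost. In the proximal WENR-minus controls alone Ptprn2, which fell, had more reads (416 and 282) than Cpe. Pam, which amidates peptides, had 1846 and 2362 reads against 3026 and 3090 in proximal WENR-minus, Ddc, which makes serotonin from the product of Tph1, 398 and 383 against 315 and 418, and Cpe, carboxypeptidase E, 347 and 500 against 194 and 199. None of these 3 was called there. In distal WENR-minus organoids Ddc rose by 1.31 ± 0.28 (adjusted p = 0.0164) and Cpe by 2.63 ± 0.46 (adjusted p = 0.00805) with Cdx2-sgRNA, the latter at 542 and 1806 reads against 264 and 161.

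Of 10 receptors with which these cells sense nutrients and other signals, 5 were tested. In proximal WENR-minus organoids 4 of these fell with Cdx2-sgRNA, beside 12.1% of all genes called lower. The short-chain fatty acid receptor Ffar2 had 8 and 3 reads against 72 and 112 (log2 fold change -3.83 ± 0.88, adjusted p = 0.00717). Olfr78 had 0 reads against 34 and 42, at least 23.2-fold lower (adjusted p = 0.00454), and Ffar1 0 against 8 and 17 (adjusted p = 0.00162). The remaining gene that fell was Sstr5, a somatostatin receptor. Ffar4, which has the highest counts of the 5, had 585 and 951 against 887 and 1073 and was not called there, and it fell in distal WENR-minus organoids, to 204 and 113 from 520 and 728 (-1.79 ± 0.26, adjusted p = 0.00367).

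Markers of other cell types also differed in the proximal Cdx2-sgRNA libraries, some lower and some higher. The 7 goblet cell markers summed to 36.7 to 73.5 CPM in the 4 proximal Cdx2-sgRNA libraries and 842 to 15762 in the other 12. In proximal organoids all 7 were called lower in WENR-minus, against 5 in WENR-plus. Of all genes, 12.1% and 8.94% were called lower in these comparisons. Muc2 had 50 to 86 reads in those 4 libraries and at least 723 elsewhere. The 5 tuft cell markers summed to 2.45 to 11.5 CPM in the 4 libraries and at most 0.533 in the others. The highest sums rest mostly on 1 gene each, Dclk1 with 201 reads in WENR-plus replicate 2 and Pou2f3 with 117 in WENR-minus replicate 2. Of the 5 only Dclk1 was tested. It was called higher in WENR-plus, at 38 and 201 reads against 0 and 4 (adjusted p = 0.0169), and had 6 and 3 against 0 and 6 in WENR-minus. Of 7 colonocyte markers 5 were called lower in proximal WENR-minus, without Krt20, and in WENR-plus 3 were lower and Krt20 higher, at 1790 and 4031 reads against 543 and 343 (adjusted p = 0.00515). Of 5 stem and crypt markers Smoc2, named after its values were seen, was lower in both media, at 1 and 5 reads against 11 and 82 in WENR-minus (14.2-fold, adjusted p = 0.0235) and 7 and 6 against 654 and 852 in WENR-plus (111-fold, adjusted p = 0.000704), and Lgr5, Ascl2, Axin2 and Ephb2 were not called. Kit held 10 to 13 reads in the 4 libraries and 63 or more in the others, and was 42.7-fold and 92.7-fold lower in proximal WENR-minus and WENR-plus (adjusted p = 0.00217 and 0.00106). The 5 mast cell markers, nearly all of them Kit reads, summed to 0.529 to 0.891 CPM and 5.27 to 150 CPM, and the 5 mesenchyme markers to 0.423 to 1.11 CPM and 1.24 to 12 CPM. Col1a1 went the other way, with 7 and 2 reads against 0 and 0 in WENR-minus and 7 and 5 against 0 and 1 in WENR-plus, and was not tested. Vim, named after its values were seen, was 16.4-fold lower in WENR-minus, with a ratio of 36.3 in WENR-plus (adjusted p = 0.00427 and 0.00497). The 8 enteric neuron markers, some shared with endocrine cells, summed to 0.0529 to 0.87 CPM in those 4 libraries and 1.85 to 7.57 CPM in the others. The part of these cell types in the members' fall was not tested.

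The third comparison asks how proximal and distal control organoids differ. In Scramble-sgRNA WENR-minus 3 of 8 members were lower in proximal organoids, Pyy, Chgb and Insl5, beside 3.20% of all genes lower. In WENR-plus 1 of 8 was lower, Pyy, beside 1.07%, and 3 with the replicate as a block, which added Chgb (adjusted p = 0.0221) and Tph1 (adjusted p = 0.0494). DESeq2 called 5 members in either direction in each medium, in WENR-plus with Chgb (adjusted p = 0.0321) and Tph1 (adjusted p = 0.0456) among them. With no filter on low counts edgeR called 6 and 7 of 10. The shares of all genes called under the block and these settings are not given here, so that their counts have no background beside them. The median over the 8 was -1.14 and -1.46, against 0.075 and 0.005 over all genes.

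Pyy had 154 and 26 reads in proximal and 903 and 1291 in distal WENR-minus libraries, 16-fold lower in proximal (log2 fold change -3.91 ± 0.64, SE, adjusted p = 0.0041). In WENR-plus it had 5 and 5 against 260 and 282, 53.2-fold lower (-5.69 ± 0.82, adjusted p = 0.00517). Insl5 had 5 and 2 reads in proximal against 213 and 70 in distal WENR-minus libraries (-5.68 ± 1.30, adjusted p = 0.0223, or 0.0731 to 0.169 without distal replicate 1 or either proximal replicate), and none against 17 and 6 in WENR-plus, at least 7.52-fold lower (adjusted p = 0.217). Proximal and distal libraries were apart for both genes and both media.

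The chromogranins differed by about the same amount in both media. Chga was 1.93-fold lower in proximal WENR-minus (log2 fold change -0.95 ± 0.28, adjusted p = 0.0541) and 2-fold lower in WENR-plus (SE 0.28 on the log2 scale, adjusted p = 0.114), neither of them called. Chga was called in WENR-minus with RLE size factors (adjusted p = 0.0442) and by DESeq2 (adjusted p = 0.00881), and in WENR-plus by DESeq2 (adjusted p = 0.0267). Chgb was 2.39-fold lower in WENR-minus (-1.22 ± 0.35, adjusted p = 0.0494), a call lost with only the libraries compared (adjusted p = 0.102), with length-scaled counts (adjusted p = 0.0602), and without distal replicate 1, distal replicate 2 or proximal replicate 2 (adjusted p of 0.0825 to 0.288). Its -1.20 ± 0.35 in WENR-plus was not called (adjusted p = 0.129). Tph1 changed by -1.07 ± 0.39 (adjusted p = 0.108) and -1.41 ± 0.42 (adjusted p = 0.129), and Gcg by -1.60 ± 0.91 in WENR-minus (adjusted p = 0.293).

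Nts alone of the 8 had a fitted value above 0 in both media. It had 331 and 67 reads in proximal and 14 and 3 in distal WENR-minus libraries, which were apart, and the 17.9-fold difference just missed the threshold (log2 fold change 4.21 ± 1.14, adjusted p = 0.0538). It passed with the replicate as a block (adjusted p = 0.008) and by DESeq2 (adjusted p = 0.00984). With no filter on low counts the value was 4.20 (adjusted p = 3.17e-08). That setting lowered the adjusted p at a nearly unchanged fold change, so that it is no added support. In WENR-plus it had 7 and 3 against 0 and 0 (adjusted p = 0.358).

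Of the 15 granule and processing genes tested, 4 were lower in proximal WENR-minus (Pcsk1, Scg5, Pam and Scg2) and 3 in WENR-plus (without Scg5), and 0 were higher. Of all genes, 3.20% and 1.07% were lower. Pcsk1, the prohormone convertase, had 2 and 0 reads in proximal and 18 and 27 in distal WENR-minus libraries, a ratio of 29.5 (adjusted p = 0.0188), and 1 and 0 against 42 and 81 in WENR-plus, a ratio of 121 (adjusted p = 0.013). Scg2 was 7.76-fold and 4.69-fold lower in proximal organoids (adjusted p = 0.00144 and 0.0136) and Pam 2.94-fold and 2.83-fold (adjusted p = 0.000182 and 0.000286). Of the other gut hormones only Ghrl, ghrelin, passed the filter among 7. It had 1 and 0 reads against 17 and 60 in WENR-minus, with a counting interval of the ratio of 17.6 to 4038 (adjusted p = 0.0112), and was 22-fold higher in WENR-minus than in WENR-plus in distal Scramble-sgRNA organoids (adjusted p = 0.00621). Of the 15 transcription factors 1, Nkx2-2, was lower in proximal WENR-minus (-1.95 ± 0.49, adjusted p = 0.0304), and 1 of 15 is near the 3.20% of all genes. In WENR-plus 0 were called, with 3 at an unadjusted p under 0.05, beside 2165 of the 15289 genes.

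**Figure D5:**
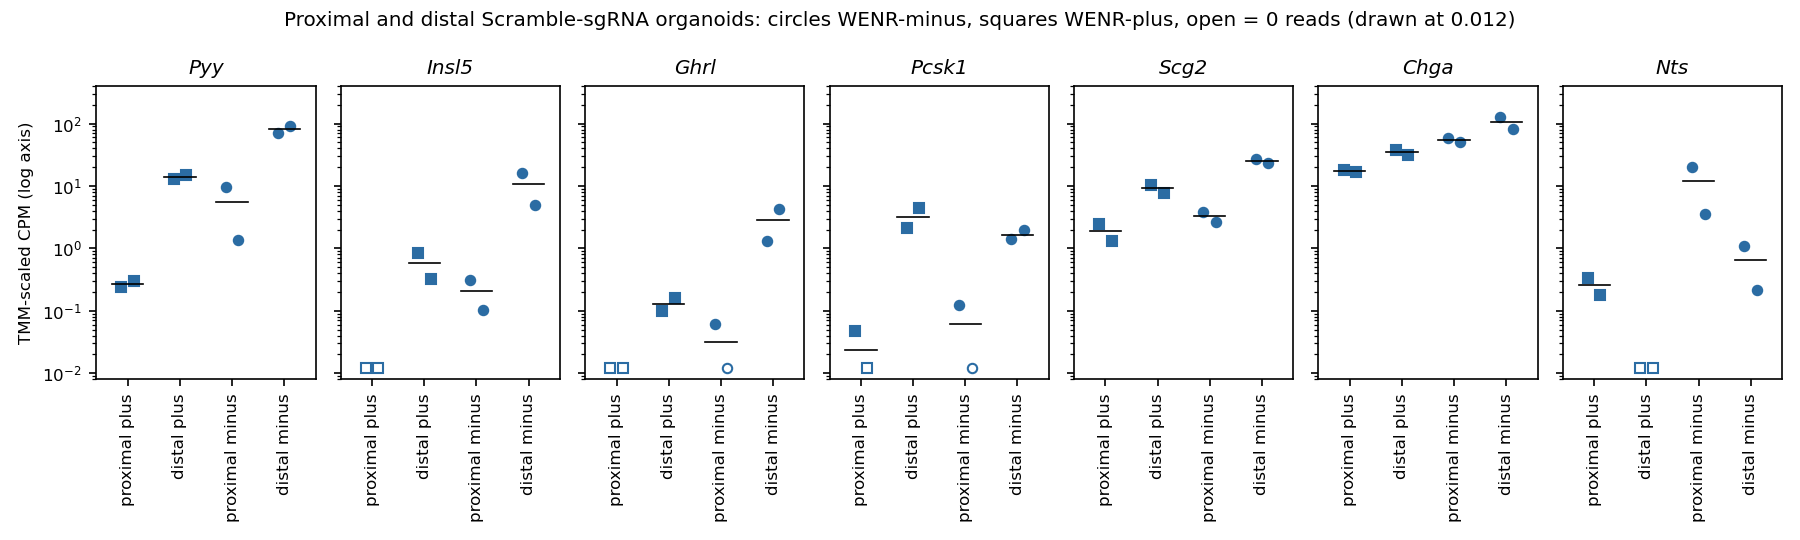
TMM-scaled CPM on a log axis in proximal and distal Scramble-sgRNA libraries (circles, WENR-minus; squares, WENR-plus; black lines, means of 2 libraries; open symbols, 0 reads, drawn at the bottom). Pyy, Insl5, Ghrl, Pcsk1 and Scg2 lie higher in distal libraries of either medium, Chga differs by 1.93-fold and 2-fold, and Nts lies higher in proximal libraries.

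The region effect was not shown to depend on the medium. Its difference between WENR-minus and WENR-plus in Scramble-sgRNA organoids was called for 0 of 8 members by edgeR and by DESeq2. By edgeR it was called for 0.0719% of all genes. At an unadjusted p under 0.05 there were 0 members, beside 1503 of the 15289 genes tested. In WENR-minus, 1 member was called between regions without distal replicate 1 and 1 without proximal replicate 2, and in WENR-plus 0 without proximal replicate 1 or replicate 2 (Pyy at adjusted p = 0.0902 and 0.0735).

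In Cdx2-sgRNA organoids the regions differed more widely. All 8 tested members were lower in proximal WENR-minus, beside 16.5% of all genes lower, and 6 of 8 in WENR-plus, beside 9.57%. These contrasts use the same proximal Cdx2-sgRNA libraries as above. Chga was 390-fold lower (log2 fold change -8.55 ± 0.43, adjusted p = 1.5e-07) in WENR-minus and 133-fold lower in WENR-plus (-7.03 ± 0.42, adjusted p = 1.34e-06). Nts, higher by its fitted value in proximal controls, had 0 reads in the proximal and 43 and 21 in the distal Cdx2-sgRNA WENR-minus libraries, at least 29.1-fold lower (adjusted p = 0.00775).

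How the members vary with Chga was described by Pearson's r of log2 CPM. Over all 16 libraries r was 0.986 for Chgb, 0.95 for Tph1, 0.841 for Cck, 0.834 for Pyy, 0.811 for Gcg, 0.626 for Insl5 and 0.49 for Nts. Without the 4 proximal Cdx2-sgRNA libraries it was 0.893, 0.958, 0.63, 0.826, 0.818, 0.763 and 0.424. The libraries share groups, mice and depth, so that these values carry no test. Of all genes tested, the 8 most like Chga over the 16 libraries were Zc3h12d, Heph, Syt7, Trim31, Ptprn2, Muc13, Sema6a and Thrb (r = 0.987 to 0.994, and 0.915 to 0.965 over the 12). Ptprn2 alone of these is in a list used here.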

How the data were processed

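Total RNA was sequenced in paired ends with a stranded kit. The authors quantified transcripts with Salmon 1.1.0 on GENCODE vM23, and deposited estimated counts, TPM and an effective length for each transcript and library. Here the estimated counts were summed per gene through the GENCODE vM21 annotation (139864 of 140748 transcripts matched, and the other 884 held 0.257 to 0.509% of counts) and rounded, and the deposited TPM values were summed likewise. The annotation therefore differs from that of the authors.

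Genes passing filterByExpr were scaled by TMM and fitted in 8 groups over 16 libraries with edgeR 4.0.16 (quasi-likelihood, R 4.3.3), with Benjamini-Hochberg adjustment over the 15289 genes tested. The code was tested on simulated data. Alternatives were DESeq2 1.42.0, RLE size factors, other filters, no fold change threshold, length-scaled counts, only the libraries compared, replicate blocks and each library left out. Where a group had 0 reads, the fold is a bound against 3 reads over the group. With 1 to 3 reads it is a ratio with an exact 95% counting interval, which covers counting error only. Beside the members, Cdx2 and Neurog3, the genes given with values are at most the 3 of a lineage list with the highest mean CPM among those called in a comparison, the 3 highest of the list, the first markers of other cell types, and the 8 genes most like Chga. The members and lists were chosen with earlier results of these data known.

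By the study's methods the organoids came from 2 independent mice. A replicate number is not stated to mark the same mouse across regions and guides. Deviations of libraries with the same number correlated at a median of 0.0848 over 28 pairs of groups (-0.0861 to 0.64), 13 of them over 0.1. With Scramble-sgRNA and Cdx2-sgRNA, the 2 media correlated at 0.516 and 0.64 in proximal and 0.359 and 0.518 in distal organoids. All other pairs were at 0.266 or less. The main tests of the medium do not pair these libraries, and the fit with each culture as a block does. Some genes of the lists are not reported here.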

Additional observations from a re-analysis of the deposited data

Results flagged for a closer look

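The effect of Cdx2-sgRNA differed between proximal and distal organoids by the interaction term of edgeR's quasi-likelihood test for 7 members in WENR-minus. On the log2 scale, proximal minus distal, the differences were -7.61 for Chga, -6.35 for Chgb, -9.13 for Tph1, -7.39 for Gcg (adjusted p = 0.0202), -6.68 for Pyy (adjusted p = 0.00901), -5.47 for Cck (adjusted p = 0.0145) and -12.71 for Nts (adjusted p = 0.00709). The fitted value of Nts depends on the prior count, since its proximal Cdx2-sgRNA libraries held 0 reads, and is no bound. In WENR-plus the differences were -6.03 for Chga, -5.70 for Chgb and -3.27 for Tph1. The medium effect differed between guides in proximal organoids for Tph1, by -5.06. No group had the 4 samples needed to look for a sample far from the others.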

How the results depend on the processing

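Of 1198 alternative values for 100 single-gene results, 1094 kept their direction and side of the threshold, 67 lost the call (61 of them with 1 library left out, 4 with only the libraries compared and 2 with length-scaled counts), 30 gained it and 7 turned direction. Of the 100 results, 72 were called in the main fit, and only these could lose a call. Among the 1094 values, 100 came from the main fit with no fold change threshold, which could not turn a direction. None of the 7 that turned was called. They were Chga between media in proximal Cdx2-sgRNA (-0.48 without Cdx2-sgRNA WENR-minus replicate 1, 0.95 without replicate 2), and in distal organoids between guides Gcg in WENR-minus (-1.03 to 1.55, with -0.19 without Scramble-sgRNA replicate 2 and -1.03 without Cdx2-sgRNA replicate 2), Tph1 in WENR-minus (up to 1.20, with -0.064 without Cdx2-sgRNA replicate 1 and -0.18 without Scramble-sgRNA replicate 2), Cdx2 in WENR-minus (-0.37 to 0.18, the latter without Cdx2-sgRNA replicate 2) and Chga in WENR-plus (-0.14 to 0.56, the former without Cdx2-sgRNA replicate 1). With no filter on low counts, 1 member was called in distal Cdx2 loss in WENR-minus and 1 in WENR-plus. Between regions of Scramble-sgRNA 6 and 7 were called in WENR-minus and WENR-plus. The difference of Cdx2 loss in WENR-plus was called for 6, that of the medium effect in proximal organoids for 3 and that of the region effect for 1. Between media in distal Cdx2-sgRNA, Gcg (1.56, adjusted p = 0.000548) and Cck (1.72, adjusted p = 0.0297) gained calls. For Gcg in distal Cdx2 loss in WENR-plus and Nts between regions in WENR-minus, this setting lowered adjusted p at nearly unchanged fold changes. Its calls are therefore read as no added support. DESeq2 called 5 and 5 between regions and 3 for the medium difference, and Cck between media in distal Cdx2-sgRNA (1.75, adjusted p = 0.042). The shares of all genes called under these settings are not given here. The replicate block called 3 between regions in WENR-plus, and 3 for the medium difference with a block per culture. Beside the calls given with their results, the blocks changed no other call. Leaving out 1 library gave 3 to 7 members called between media in proximal and 3 to 7 in distal Scramble-sgRNA, 1 to 3 and 0 to 1 between regions in WENR-minus and WENR-plus, and 0 to 2 for the medium difference. The cause was not tested. A minimum of 10 counts in every library left no member to test. RLE size factors moved the median of all genes by at most 0.0647.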
